A study of Rattus norvegicus with 30 samples.

Results

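Fatty acid oxidation enzymes were followed in cultured rat hepatocytes exposed to phenobarbital, a barbiturate that induces liver drug metabolism. The set holds the genes Cpt1a, Cpt2, Acadvl, Acadl, Acadm, Hadha, Hadhb, Ehhadh and Acaa1a, chosen by name as enzymes of mitochondrial and peroxisomal β-oxidation. Earlier results of these data were known when this set and the gene lists below were chosen, so their counts are descriptive. On the GeneChip Rat Genome 230 2.0 array, which names 14217 genes by a single symbol, 11 of 31099 probe sets carried 1 of these symbols alone, for 8 of the 9 genes. Acaa1a was read by 1 further probe set that carries the symbols Acaa1b and Acaa1a together, so the closely related pair cannot be separated and its values are given apart.

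The study measured 30 culture wells, 1 array a well. Wells received vehicle, 300 µM or 3000 µM phenobarbital and were taken 24 h or 48 h after dosing, which makes 6 groups with 5 wells in each. All wells held purchased, frozen hepatocytes of male Sprague Dawley rats, plated on collagen under Matrigel, with the vehicle named as water in the titles and as culture media in the field for the agent. No animals or donors are numbered in the labels, so every p-value below measures the spread between wells. Hepatocyte markers were at or above the detection filter for 10 of the 10 marker genes that had a probe set.

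Mitochondrial β-oxidation shortens fatty acids to acetyl-CoA for energy and for ketone bodies, a task for which the liver depends on entry of acyl groups through the carnitine shuttle. Cpt1a makes acylcarnitine at the outer mitochondrial membrane, Cpt2 returns it to acyl-CoA inside, and Acadvl, Acadl and Acadm carry out the first dehydrogenation of very long, long and medium chains. Hadha and Hadhb are the subunits of the mitochondrial trifunctional protein. Peroxisomes run a parallel pathway in which Ehhadh hydrates and dehydrogenates the acyl chain and Acaa1a cleaves it. Many of these genes are known targets of the nuclear receptor PPARα.

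Promoter sequences are shown for 3 loci on which the results turn: the stretch shared by Hadha and Hadhb, which moved apart, Acadm, which was lower at both doses, and Ehhadh, one of the genes with the largest falls. They are RefSeq sequences of the GRCr8 assembly, printed 5′ to 3′. The first covers the 300 bases between the Hadha and Hadhb starts at chr6:31907501-31907800, on the plus strand. The others are the 250 bases before the start, at chr2:245542865-245543114 on the minus strand for Acadm and at chr11:92746159-92746408 on the plus strand for Ehhadh. Capitals mark matches, on either strand, to the GC box GGGCGG, the CCAAT box CCAAT and the cyclic AMP response element TGACGTCA.
Hadha and Hadhb: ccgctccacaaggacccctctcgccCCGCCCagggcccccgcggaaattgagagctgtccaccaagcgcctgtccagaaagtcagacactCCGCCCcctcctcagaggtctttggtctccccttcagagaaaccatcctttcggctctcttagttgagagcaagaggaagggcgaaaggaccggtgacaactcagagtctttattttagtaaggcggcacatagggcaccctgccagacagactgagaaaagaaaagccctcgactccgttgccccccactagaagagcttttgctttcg
Acadm: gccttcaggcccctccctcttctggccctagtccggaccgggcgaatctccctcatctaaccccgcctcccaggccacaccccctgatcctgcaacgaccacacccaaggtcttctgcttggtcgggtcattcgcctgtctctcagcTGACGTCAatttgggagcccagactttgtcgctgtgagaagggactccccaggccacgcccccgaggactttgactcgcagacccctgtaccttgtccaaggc
Ehhadh: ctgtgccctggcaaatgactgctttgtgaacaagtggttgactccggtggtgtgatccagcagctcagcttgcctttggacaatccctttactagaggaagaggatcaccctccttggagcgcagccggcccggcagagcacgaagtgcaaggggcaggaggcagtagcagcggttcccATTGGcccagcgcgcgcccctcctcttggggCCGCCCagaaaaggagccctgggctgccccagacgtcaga

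Hadha and Hadhb start at positions 31907801 and 31907500 of chromosome 6 and are transcribed away from each other, and the stretch between them held 2 GC box matches and none of the other motifs searched. Windows of 300 bases, ending 50 bases after the start, were available for 8 of the 9 genes (not for Acadl). Acadm was the only 1 of the 8 with TGACGTCA, at bases -103 to -96 from its start, against 1.83% of all 33469 promoter windows. CCAAT lay in 3 of 8, against 37.5% of all windows, and GGGCGG in 6 of 8, against 33.1%. The Hadha and Hadhb windows overlap by 200 bases, and the only GGGCGG match of Hadha (-210 to -205) is the same site as a Hadhb match (-96 to -91). The GGGCGG matches of Acadm all lie after its start, within bases 1 to 40. A direct repeat of AGGTCA with 1 free base between its copies, the form recognised by PPARα with its partner RXR, and a looser form built from AGGNCA were found in 0 of 8, against 0.0538% and 0.415% of all windows. A match describes the letters in the window and is not a binding site.

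Values below are log2 of the deposited MAS5 signal. Changes are differences of group means on that scale from limma fitted to all 30 arrays, with p-values adjusted by Benjamini-Hochberg over the 16596 probe sets whose highest group mean reached the median of all values (log2 signal 8.58). Adjusted p under 0.05 counted as a change. Of the 11 probe sets with 1 symbol, 9 passed that filter. The 2 that did not both read Hadha, with group means between 6.73 and 8.32, and were not tested. Each array had been scaled to a common level, so neither cell number nor RNA per cell can be read from these values.

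At 3000 µM phenobarbital most of these enzymes were lower than in vehicle at both times. At 24 h, 8 of the 9 tested probe sets fell, 0 rose and 1 (Hadhb) did not pass. Over all 16596 probe sets 32% changed, 14.8% downward and 17.3% upward. At 48 h, 6 fell, 1 rose and 2 did not pass, where 39.4% of all probe sets changed, 19.9% downward and 19.5% upward. The median change of the 9 was -0.55 at 24 h and -0.53 at 48 h, against 0.01 at 24 h and -0.00083 at 48 h over all tested probe sets. All 5 treated arrays lay below all 5 vehicle arrays for 8 of 9 probe sets at 24 h (11.4% of all) and for 5 of 9 at 48 h (12.7% of all). Among the 9, the largest falls at both times were those of Ehhadh and of 1 of the 2 Cpt1a probe sets (1386946_at).

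**Figure D1:**
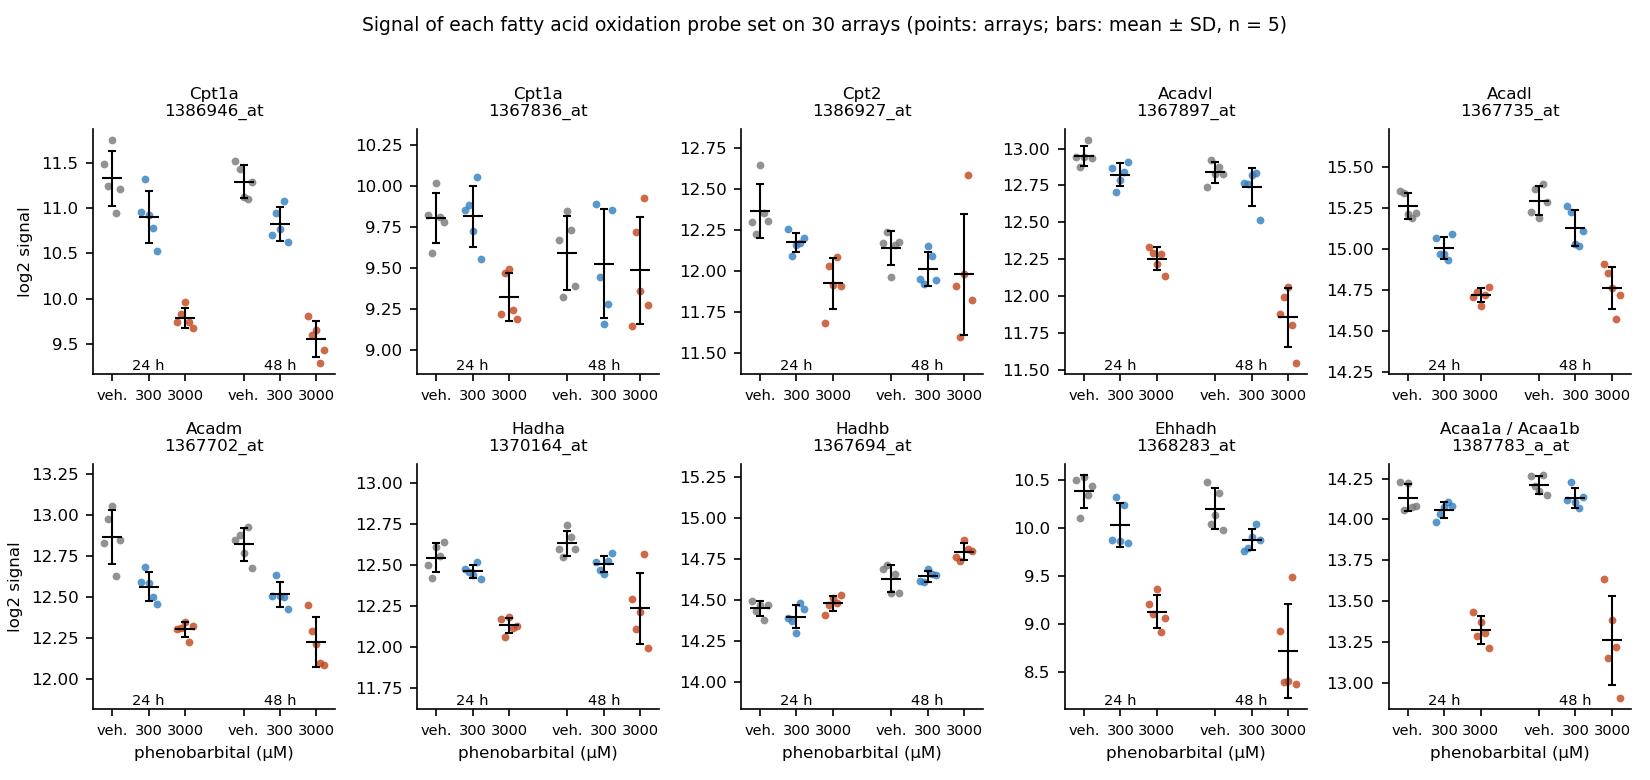
Log2 signal (vertical axis, a range of its own in each panel) of the 9 tested probe sets and of the shared Acaa1a and Acaa1b probe set, by phenobarbital dose in µM and time. Points are the 5 arrays of a group, bars the mean ± SD. In the Cpt1a panel for 1386946_at the 3000 µM arrays lie between 9.67 and 9.96 at 24 h, below all vehicle arrays, whereas in the Hadhb panel the 48 h arrays at 3000 µM lie above those of vehicle.

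Cpt1a, the rate-controlling step of mitochondrial fatty acid entry, had the largest fall of the set. Its brighter probe set (1386946_at) read 9.75, 9.83, 9.96, 9.74 and 9.67 in 3000 µM wells at 24 h, against 11.49, 11.25, 11.76, 10.94 and 11.21 in vehicle wells. The 48 h values were 9.81, 9.60, 9.65, 9.29 and 9.43 at 3000 µM, against 11.52, 11.43, 11.12, 11.10 and 11.29 in vehicle. The groups did not overlap at either time. Cpt1a fell by 1.54 (SE 0.134) at 24 h, 2.91-fold, with limma adjusted p = 7.56e-11. The fall at 48 h was 3.34-fold (-1.74, SE 0.134, adjusted p = 2.31e-12).

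The second Cpt1a probe set (1367836_at) gave a different account. It read 9.22, 9.47, 9.49, 9.24 and 9.19 at 3000 µM at 24 h, against 9.83, 9.59, 10.02, 9.81 and 9.78 in vehicle. By 48 h the values were 9.15, 9.72, 9.36, 9.93 and 9.27 at 3000 µM, against 9.67, 9.32, 9.85, 9.73 and 9.39 in vehicle. The groups were separate at 24 h and overlapped at 48 h. The fall was 1.40-fold at 24 h (-0.48, SE 0.151, adjusted p = 0.0135), and the 48 h change of -0.11 did not pass (95% interval -0.42 to 0.20, adjusted p = 0.616). Both probe sets carry the symbol Cpt1a alone, and which transcript form each one reads was not tested.

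Cpt2, the inner membrane partner of Cpt1a, changed less than the brighter Cpt1a probe set. Cpt2 read 11.68, 12.03, 11.91, 12.09 and 11.91 at 3000 µM at 24 h, against 12.30, 12.22, 12.65, 12.35 and 12.31 in vehicle. It fell 1.36-fold at 24 h (-0.44, SE 0.110, adjusted p = 0.00215). Its 48 h values were 11.91, 11.59, 11.98, 12.59 and 11.82 at 3000 µM, against 12.17, 12.24, 11.96, 12.16 and 12.18 in vehicle. Array 4 of the 3000 µM group was the highest of all 10 at 48 h. The 48 h change was -0.16 (95% interval -0.39 to 0.06, adjusted p = 0.258) with all arrays and -0.32 (adjusted p = 0.00288) without that array, which then passed. The same array had a hybridization control mean of 14.57, and array 1 of the 24 h vehicle group 14.14, against 12.997 to 13.35 on the other arrays.

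The acyl-CoA dehydrogenases fell together at 3000 µM. Acadvl read 12.33, 12.29, 12.21, 12.29 and 12.14 at 3000 µM at 24 h, against 12.94, 12.88, 12.94, 13.06 and 12.94 in vehicle. The wells at 48 h read 11.87, 11.99, 12.06, 11.80 and 11.54 at 3000 µM, against 12.74, 12.92, 12.83, 12.87 and 12.83 in vehicle. No arrays overlapped between the groups at either time. Acadvl fell 1.62-fold at 24 h (-0.70, SE 0.0720, adjusted p = 2.81e-09) and 1.98-fold at 48 h (-0.98, SE 0.0720, adjusted p = 7.52e-13).

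Acadl read 14.71, 14.74, 14.66, 14.72 and 14.77 at 3000 µM at 24 h, against 15.36, 15.34, 15.21, 15.19 and 15.22 in vehicle. Its 48 h values were 14.91, 14.86, 14.76, 14.58 and 14.72 at 3000 µM, against 15.23, 15.37, 15.19, 15.40 and 15.29 in vehicle. The spread between wells was small, and the groups were separate at both times. Acadl fell 1.46-fold at 24 h (-0.55, SE 0.0573, adjusted p = 3.80e-09) and 1.45-fold at 48 h (-0.53, SE 0.0573, adjusted p = 3.52e-09).

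Acadm, whose promoter window above carries TGACGTCA, read 12.31, 12.31, 12.35, 12.23 and 12.32 at 3000 µM at 24 h, against 12.83, 12.97, 13.05, 12.62 and 12.85 in vehicle. At 48 h the values were 12.45, 12.29, 12.21, 12.09 and 12.08 at 3000 µM, against 12.85, 12.88, 12.77, 12.93 and 12.68 in vehicle. All treated wells were below all vehicle wells at both times. The fall was 1.48-fold at 24 h (-0.56, SE 0.0713, adjusted p = 1.49e-07) and 1.51-fold at 48 h (-0.59, SE 0.0713, adjusted p = 3.20e-08).

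Hadha and Hadhb, the partners in 1 protein complex, differed. Hadha (1370164_at) read 12.17, 12.06, 12.18, 12.12 and 12.13 at 3000 µM at 24 h, against 12.50, 12.42, 12.61, 12.56 and 12.64 in vehicle. Its 48 h values were 12.29, 12.11, 12.22, 12.57 and 11.996 at 3000 µM, against 12.60, 12.55, 12.74, 12.67 and 12.60 in vehicle, and array 4 overlapped the vehicle wells. It fell 1.33-fold at 24 h (-0.41, SE 0.0684, adjusted p = 1.25e-05) and 1.32-fold at 48 h (-0.40, SE 0.0684, adjusted p = 1.54e-05).

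Hadhb read 14.40, 14.47, 14.51, 14.48 and 14.53 at 3000 µM at 24 h, against 14.49, 14.43, 14.47, 14.38 and 14.47 in vehicle. Its 48 h values were 14.76, 14.73, 14.87, 14.81 and 14.80 at 3000 µM, against 14.69, 14.71, 14.54, 14.66 and 14.54 in vehicle. The 24 h groups overlapped, and all treated wells lay above all vehicle wells at 48 h (11.5% of all probe sets). The 24 h change was 0.03 (95% interval -0.06 to 0.12, adjusted p = 0.636). Hadhb rose by 0.17 at 48 h (SE 0.0431, adjusted p = 0.00225), the only rise in the set. Scaling leaves this direction in place: it was higher at 48 h with array medians centred and with quantile normalization too.

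**Figure D2:**
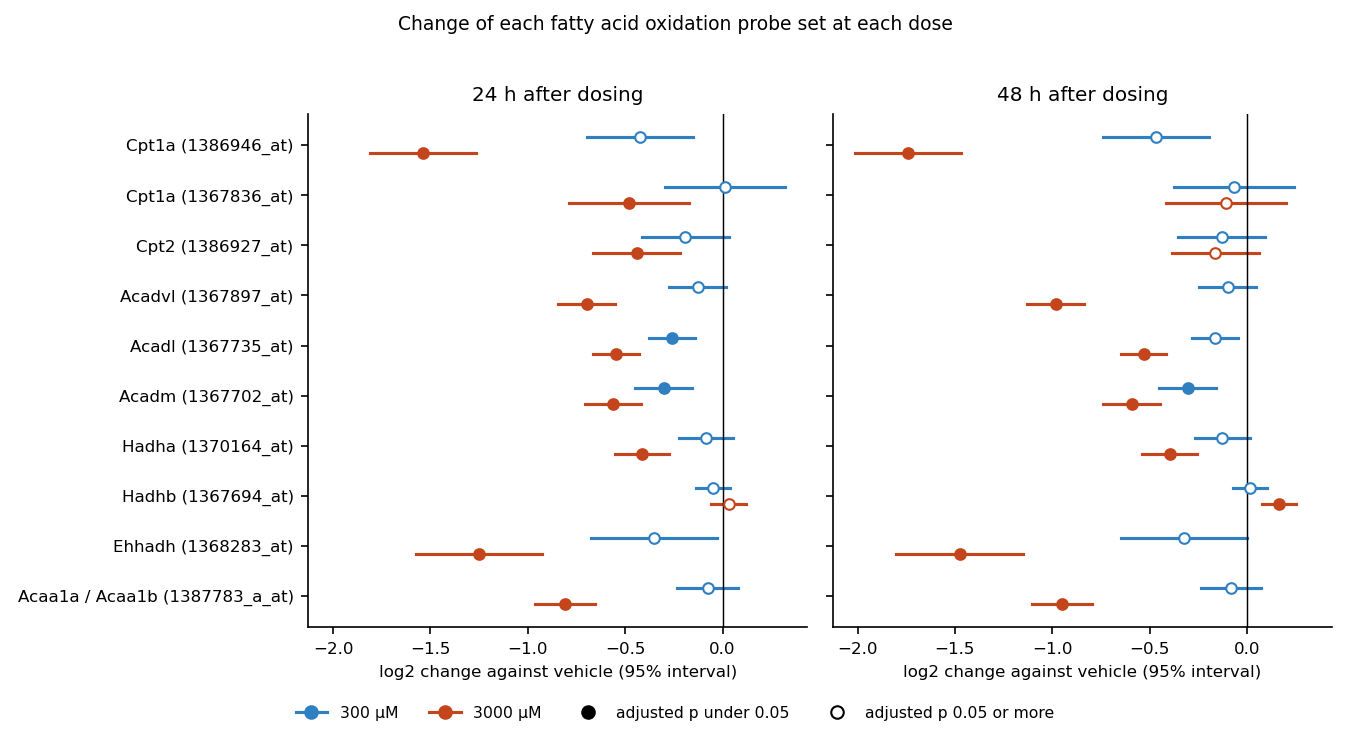
Log2 change against vehicle (horizontal axis) with its 95% interval for each probe set, at 24 h and 48 h. Filled points had an adjusted p under 0.05. At 3000 µM all points but Hadhb lie left of 0, with Cpt1a (1386946_at) at -1.54 and -1.74, and at 300 µM only Acadl and Acadm at 24 h and Acadm at 48 h are filled.

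The change of one enzyme relative to its partner was tested within arrays, as the difference of their log2 signals on the same array, by exact 2-sided permutation tests. In all 10 such tests (5 pairs at 2 times) were run on pairs chosen after the values were seen, and the smallest p that 5 against 5 wells allow is 0.00794. Probe sets differ in brightness, so only the shift between groups can be read, and whether they also differ in response was not tested. Hadha minus Hadhb was -2.35 ± 0.0694 at 3000 µM and -1.90 ± 0.0935 in vehicle at 24 h (SD, n = 5 each), a shift of -0.45 with exact permutation p = 0.00794 and adjusted p = 0.0132. The 48 h difference was -2.56 ± 0.213 at 3000 µM and -1.99 ± 0.139 in vehicle (SD, n = 5 each), a shift of -0.56 with the same exact permutation p and adjusted p. The Hadha probe set therefore changed unequally with that of Hadhb on the same arrays. For this difference all 5 treated wells lay below all 5 vehicle wells at both times.

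Cpt1a (1386946_at) minus Cpt2 shifted by -1.10 at 24 h and by -1.58 at 48 h, each with adjusted exact permutation p = 0.0132. Array 4 of the 3000 µM group at 48 h had a difference of -3.30, against -2.40 to -2.00 on the others of that group. The second Cpt1a probe set (1367836_at) was not paired with Cpt2. It changed by -0.48 at 24 h and -0.11 at 48 h, against -0.44 and -0.16 for Cpt2, in the same order of times. Among the dehydrogenases, Acadvl minus Acadl shifted by -0.15 at 24 h (adjusted exact permutation p = 0.125) and by -0.45 at 48 h (0.0132). Acadvl minus Acadm shifted by -0.14 at 24 h (adjusted exact permutation p = 0.309) and by -0.39 at 48 h (0.0132). Acadm minus Acadl shifted by -0.02 at 24 h (adjusted exact permutation p = 0.849) and by -0.06 at 48 h (0.309), so their falls could not be told apart at this number of wells. At 48 h the Acadvl probe set had thus fallen further than those of Acadl and Acadm. Whether this difference lies in the transcripts or in the probe sets was not tested.

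**Figure D3:**
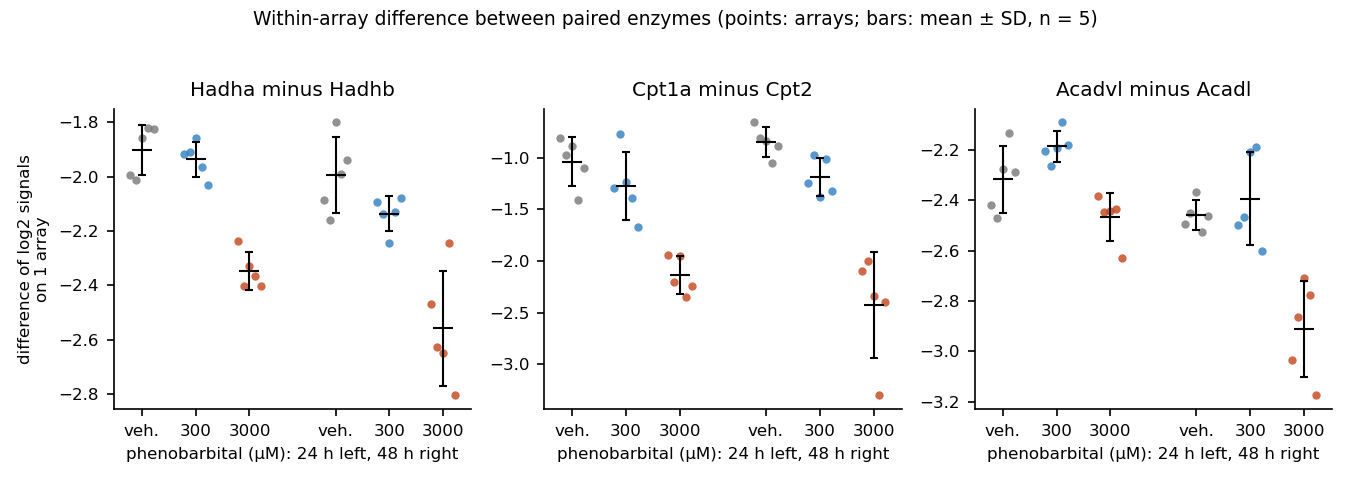
Difference of 2 log2 signals on the same array (vertical axis) by phenobarbital dose in µM, with 24 h on the left and 48 h on the right of each panel; points are arrays and bars the mean ± SD of 5. Hadha minus Hadhb averages -2.35 at 3000 µM and -1.90 in vehicle at 24 h, and -2.56 at 3000 µM and -1.99 in vehicle at 48 h.

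The probe sets of the peroxisomal enzymes fell as well. Ehhadh, the bifunctional enzyme, read 9.22, 9.10, 9.36, 8.92 and 9.07 at 3000 µM at 24 h, against 10.50, 10.10, 10.53, 10.35 and 10.44 in vehicle. The 48 h wells read 8.93, 8.40, 8.41, 9.50 and 8.38 at 3000 µM, against 10.48, 10.04, 10.14, 10.37 and 9.98 in vehicle. Array 4 was again the highest treated well, but no arrays overlapped. Ehhadh fell 2.38-fold at 24 h (-1.25, SE 0.159, adjusted p = 1.63e-07) and 2.78-fold at 48 h (-1.48, SE 0.159, adjusted p = 3.52e-09). Of its treated wells at 48 h, 3 lay below the filter level of 8.58 (8.40, 8.41 and 8.38).

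The probe set shared by Acaa1b and Acaa1a (1387783_a_at), peroxisomal thiolases, read 13.44, 13.29, 13.37, 13.30 and 13.21 at 3000 µM at 24 h, against 14.23, 14.06, 14.22, 14.08 and 14.08 in vehicle. Values at 48 h were 13.64, 13.15, 13.39, 13.22 and 12.91 at 3000 µM, against 14.27, 14.20, 14.17, 14.27 and 14.15 in vehicle. The groups were separate at both times. The shared signal fell 1.75-fold at 24 h (-0.81, SE 0.0759, adjusted p = 3.86e-10) and 1.93-fold at 48 h (-0.95, SE 0.0759, adjusted p = 5.55e-12). Whether Acaa1a, Acaa1b or both fell cannot be told from it.

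At 300 µM the same probe sets moved little. Of the 9, 2 fell at 24 h, 0 rose and 7 did not pass, where 2.99% of all probe sets changed, 1.27% downward and 1.72% upward. At 48 h 1 of 9 fell and 8 did not pass, where 1.54% of all changed, 0.723% downward and 0.813% upward. Changes were below 0 for 8 of 9 probe sets at each time, and the medians were -0.19 at 24 h and -0.13 at 48 h. With array medians centred no probe set of the 9 passed at either time (limma, 0 of 9).

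The probe sets that passed at 300 µM were those of the medium and long chain dehydrogenases Acadm and Acadl. Whether their changes differ from those of the other probe sets was not tested. Acadm read 12.59, 12.68, 12.59, 12.50 and 12.46 at 300 µM at 24 h, against the vehicle values above, which it overlapped through vehicle well 4 (12.62). It fell 1.23-fold at 24 h (-0.30, SE 0.0713, adjusted p = 0.0119). At 48 h Acadm read 12.51, 12.64, 12.51, 12.50 and 12.42 at 300 µM, below all vehicle wells, and fell 1.24-fold (-0.31, SE 0.0713, adjusted p = 0.0166). Its 24 h call is lost without vehicle well 3 (adjusted p = 0.0541), and its 48 h call is lost without 300 µM well 5 (adjusted p = 0.0603) or vehicle well 4 (adjusted p = 0.0682).

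Acadl read 15.07, 14.97, 14.97, 14.93 and 15.09 at 300 µM at 24 h, below all vehicle wells, and fell 1.20-fold (-0.26, SE 0.0573, adjusted p = 0.00729). At 48 h its change at 300 µM was -0.16 (adjusted p = 0.169), and with quantile normalization it was -0.22 and passed (adjusted p = 0.00733).

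Cpt1a did not pass at 300 µM, although the changes of its brighter probe set (1386946_at) were numerically the largest of the 9. That probe set read 10.96, 11.32, 10.92, 10.78 and 10.53 at 300 µM at 24 h, overlapping vehicle, with a change of -0.43 (95% interval -0.70 to -0.15, adjusted p = 0.0830). The 300 µM wells at 48 h read 10.71, 10.95, 10.77, 11.08 and 10.62, all below the vehicle wells, with a change of -0.47 (95% interval -0.74 to -0.20, adjusted p = 0.0685). The 24 h change passed without 300 µM well 2 (adjusted p = 0.0257) or vehicle well 4 (adjusted p = 0.0264). The second Cpt1a probe set (1367836_at) changed by 0.01 at 24 h (adjusted p = 0.989) and -0.07 at 48 h (adjusted p = 0.925) at 300 µM. For Ehhadh the change at 300 µM was -0.35 at 24 h (adjusted p = 0.289) and -0.32 at 48 h (adjusted p = 0.422). Acadvl, Hadha, Hadhb, Cpt2 and the shared thiolase probe set lay between -0.19 and 0.01 at both times, with adjusted p of 0.445 or more.

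Set directly against 300 µM, the 3000 µM wells were lower for 7 of 9 probe sets at 24 h, where 26.1% of all probe sets changed, 12.2% downward and 13.9% upward. At 48 h 6 were lower and 1 was higher, where 34.9% of all changed, 16.9% downward and 17.9% upward. Cpt1a (1386946_at) changed by -1.11 at 24 h (adjusted p = 8.90e-08) and by -1.27 at 48 h (adjusted p = 3.04e-09). Acadvl differed by -0.57 at 24 h and -0.89 at 48 h, and Ehhadh by -0.90 and -1.15, in the same order of times. The shared thiolase probe set differed by -0.73 (adjusted p = 6.19e-09) at 24 h. Hadhb was higher by 0.15 at 48 h (adjusted p = 0.00589). These comparisons share wells with those against vehicle.

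Side by side at 24 h, the changes of Acadm were -0.30 at 300 µM and -0.56 at 3000 µM, and those of Acadl -0.26 and -0.55 in the same order of doses. Acadvl (-0.13) and the shared thiolase probe set (-0.08) did not pass at 300 µM and changed by -0.70 and -0.81 at 3000 µM, in the same order of genes. Whether the enzymes differ in their dose pattern was not tested.

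Between times the vehicle wells changed little. At 48 h against 24 h 1 of 9 probe sets passed, Hadhb, which was higher by 0.18 (SE 0.0431, adjusted p = 0.00691), where 7.2% of all probe sets changed and 4.05% rose. With array medians centred this rise was 0.13 and did not pass (adjusted p = 0.315). The difference of the 3000 µM effect between 48 h and 24 h passed for 0 of 9 probe sets with limma, against 4.15% of all, and 2 of 9 had an unadjusted p under 0.05, as did 3142 of the 16596. The smallest adjusted p of the 9 was that of Acadvl, with a larger fall at 48 h (-0.29, SE 0.102, adjusted p = 0.108). Acadvl passed without 3000 µM well 3 at 48 h (adjusted p = 0.0483). The largest difference was that of Cpt1a (1367836_at), with a smaller fall at 48 h (0.37, SE 0.214, adjusted p = 0.355). The difference of the 300 µM effect passed for 0 of 9 and for 0 of 16596 probe sets with limma (1251 of all and 0 of the 9 at an unadjusted p under 0.05).

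Other genes of the pathway were counted 1 probe set a gene, with a median change over all genes of 0.02 at both times. Of all genes at 3000 µM, 15.9% fell and 20.1% rose at 24 h, and 20.1% fell and 23.3% rose at 48 h. Among other mitochondrial β-oxidation enzymes, 12 of 16 tested fell and 1 rose at each time, with medians of -0.40 at 24 h and -0.42 at 48 h. Hadh, the short chain 3-hydroxyacyl-CoA dehydrogenase, fell 2.15-fold at 24 h (-1.10, SE 0.0723) and also at 48 h (-1.27). Etfdh, which passes electrons from acyl-CoA dehydrogenases to ubiquinone, fell at 24 h (-1.22) and at 48 h (-1.24). Decr1, the 2,4-dienoyl-CoA reductase of unsaturated chains, fell by 1.06 at 48 h on the log2 scale. At 300 µM, Eci1, an enoyl-CoA isomerase, was the only 1 of the 16 to fall at 24 h (-0.26, adjusted p = 0.00449), where 1.61% of all genes fell, and 0 of 16 changed at 48 h with limma, where 0.896% of all genes fell. These low-dose counts depended on the setting: at 24 h 0 fell with array medians centred and 3 without the 2 arrays that stood apart by their hybridization controls, and at 48 h 3 fell with quantile normalization and 2 without those arrays.

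Genes of fatty acid uptake, activation and the carnitine shuttle gave similar counts. At 3000 µM 12 of 19 fell and 3 rose at 24 h, and 12 fell and 1 rose at 48 h. Fabp1, the liver fatty acid binding protein, fell at 24 h (-0.84, SE 0.0874) and at 48 h (-1.30). Slc25a20, the carnitine-acylcarnitine carrier between Cpt1a and Cpt2, fell at 24 h (-0.48, SE 0.0771) and at 48 h (-0.36). The medium chain acyl-CoA synthetases Acsm5 (-1.73) and Acsm2 (-1.06) fell at 24 h. At 300 µM 3 of 19 fell at each time, among them Slc27a2, a very long chain acyl-CoA synthetase (-0.34 at 24 h and -0.33 at 48 h). With array medians centred the list had 2 falls at 24 h and 1 at 48 h at 300 µM.

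Among other peroxisomal oxidation genes, 13 of 19 fell and 2 rose at 24 h, and 12 fell and 0 rose at 48 h. Phyh, the phytanoyl-CoA hydroxylase, fell at 24 h (-0.89) and at 48 h (-1.05). Hsd17b4, the other peroxisomal bifunctional enzyme, changed by -0.45 at 24 h and -0.52 at 48 h and passed at both times. At 300 µM 4 of these 19 fell and 1 rose at 24 h, and 2 fell and 1 rose at 48 h, with 2 falls at 24 h and 1 at 48 h when array medians were centred. The falls included Hao2, a peroxisomal hydroxyacid oxidase (-0.42 at 24 h and -0.43 at 48 h), Ech1, a dienoyl-CoA isomerase (-0.34 at 24 h and -0.30 at 48 h), and Hacl1, a hydroxyacyl-CoA lyase (-0.42 at 24 h). The 1 gene that rose was Acox2, a peroxisomal acyl-CoA oxidase. It rose by 0.73 (SE 0.0879, adjusted p = 1.33e-06) at 24 h and 0.92 (adjusted p = 9.67e-09) at 48 h at 300 µM, and changed by -0.50 (adjusted p = 2.84e-05) at 24 h and -0.54 (adjusted p = 6.35e-06) at 48 h at 3000 µM. The 3000 µM wells differed from the 300 µM wells by -1.24 at 24 h (adjusted p = 2.62e-12) and -1.47 at 48 h (adjusted p = 1.93e-14).

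**Figure D4:**
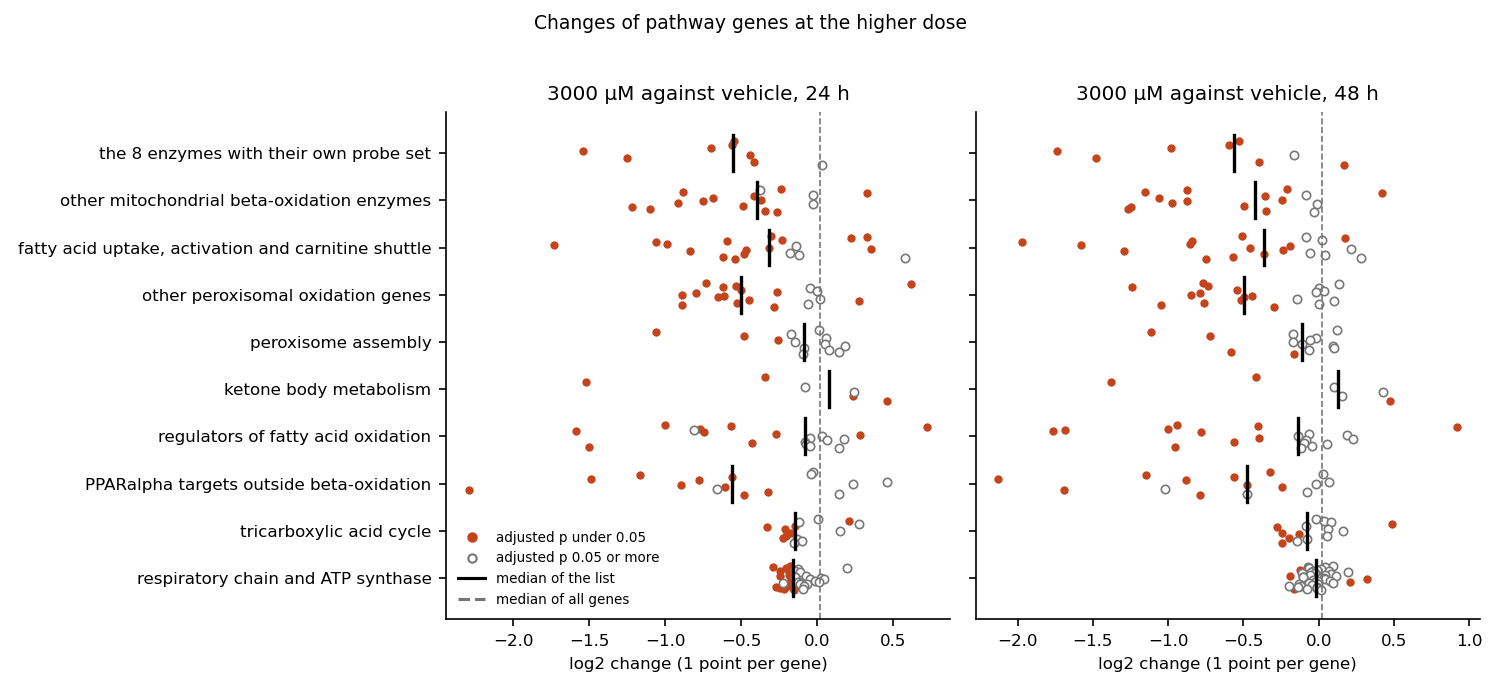
Log2 change at 3000 µM against vehicle (horizontal axis) of each tested gene of the pathway lists, 1 point a gene, at 24 h and 48 h; filled points had an adjusted p under 0.05, black bars are list medians and the dashed line is the median of all genes. The β-oxidation, peroxisomal oxidation and PPARα target lists have medians between -0.40 and -0.56, and the respiratory chain list has -0.16 at 24 h and -0.02 at 48 h.

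PPARα targets outside β-oxidation included 9 of 15 that fell and 0 that rose at each time at 3000 µM, and 6 at 24 h and 4 at 48 h that fell at 300 µM. The 300 µM counts were 3 at each time with array medians centred, and 6 at 48 h without the 2 arrays that stood apart. Cyp4a1, the fatty acid omega-hydroxylase, changed by -1.48 (SE 0.0729, adjusted p = 2.03e-16) at 24 h and -2.13 at 48 h at 3000 µM, and by -0.61 at 24 h and -0.85 at 48 h at 300 µM, all past the threshold. Angptl4, a lipoprotein lipase inhibitor, fell at 24 h (-1.17) and at 48 h (-1.14) at 3000 µM, and Pdk4, a pyruvate dehydrogenase kinase, fell at 24 h (-0.90). Ppara itself lay below the filter in every group, with group means of 5.62 to 6.38, and was not tested. Of 19 regulators of fatty acid oxidation, 8 fell and 2 rose at 24 h, and 9 fell and 1 rose at 48 h. The falls included Lpin1, a phosphatidate phosphatase and coactivator (-1.59 at 24 h), and Sirt3, a mitochondrial deacetylase (-1.50 at 24 h). Acaca (-0.999 at 24 h) and Fgf21 (-0.771 at 24 h) fell as well. The counts do not separate regulators that promote oxidation from those that restrain it, so they give no direction for the pathway.

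Neighbouring mitochondrial and peroxisomal lists were counted in the same way. Peroxisome assembly genes fell at 3000 µM for 3 of 13 at 24 h (15.9% of all genes) and 4 of 13 at 48 h (20.1% of all). With array medians centred 2 fell at 24 h and 3 at 48 h. The largest fall was that of Pex11a, a peroxisome division factor (-1.06 at 24 h and -1.11 at 48 h). Among 6 ketone body genes 2 fell and 2 rose at 24 h, with Bdh1, the 3-hydroxybutyrate dehydrogenase, 2.87-fold lower (-1.52). Respiratory chain and ATP synthase genes fell for 25 of 44 at 24 h with a median of -0.16, but for 12 with quantile normalization and 3 with array medians centred. At 48 h 3 fell and 2 rose. Tricarboxylic acid cycle genes fell for 7 of 15 at 24 h, and for 1 with array medians centred. The corresponding counts of other mitochondrial β-oxidation enzymes at 24 h were 12 with quantile normalization and 10 with array medians centred.

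Group profiles were compared over the 6 groups, as the root mean square difference between centred group means of log2 signal. The mean profile of the 9 probe sets, 1 a gene with the shared one for Acaa1a, was nearest to Iqgap2 (0.0366), Abcd3 (0.0380), Them7 (0.0394), Igf2bp3 (0.0407) and Marcks (0.0451). Of these Abcd3, a peroxisomal membrane transporter of acyl-CoA, was on a pathway list. The nearest gene to Acadm was Slc27a2 (0.0213), and to Ehhadh it was Ang (0.0449). Hadhb was nearest to Dap (0.0186).

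Summed signals of the hepatocyte markers ranged from 477872 to 511489 at 3000 µM and from 559710 to 731440 in vehicle at 24 h, without overlap. The 300 µM wells at 24 h ranged from 465746 to 559597 and also lay below all vehicle wells. Counted by gene, 7 of 10 hepatocyte markers fell at 3000 µM at 24 h (15.9% of all genes) and 4 at 48 h (20.1% of all). At 300 µM 0 of 10 fell at either time. At 48 h they ranged from 450247 to 761497 at 3000 µM and from 497000 to 581829 in vehicle. Macrophage markers, 7 of 9 above the filter, summed to 25606 to 27655 at 3000 µM and 26903 to 28041 in vehicle at 24 h. The sums at 48 h were 22404 to 25010 at 3000 µM and 18877 to 22410 in vehicle. Cd14 (mean log2 signal 13.60) and Lyz2 (13.09) were the brightest, and the others lay at 9.88 or lower. By gene, 3 of 7 fell and 2 rose at 3000 µM at 24 h, where 15.9% of all genes fell and 20.1% rose. At 48 h 0 fell and 2 rose, where 20.1% of all fell and 23.3% rose. Markers above the filter numbered 4 of 10 for stellate cells and fibroblasts, 1 of 6 for endothelial cells, 1 of 4 for cholangiocytes and 2 of 6 for lymphocytes. The part of these shifts in the falls of the β-oxidation enzymes was not tested.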

How the data were processed

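Total RNA of 30 wells was hybridized to GeneChip Rat Genome 230 2.0 arrays, 1 a well. Linear MAS5 intensities, 1 a probe set, were deposited by the authors, per the submitters' processing notes, which give no version. With 2% of values trimmed at either end, array means were 1500.59 to 1500.67, so each array had been scaled to a common level. No detection calls were used. Array medians were 349 to 425. Arrays of a group correlated at 0.951 to 0.981, and 0 pairs held identical values. The number of wells, 5 a group, limits the precision.

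Intensities were put on the log2 scale with no constant added. The 57 control probe sets were left out of tests. Symbols came from GEO's platform annotation: 20826 probe sets had 1 symbol, 436 several and 9780 none, and only those with 1 symbol were named, apart from the shared Acaa1b and Acaa1a probe set. A probe set was tested if its highest group mean reached the median of all log2 values (8.58), which left 16596. A model of 6 group means was fitted to all arrays with limma 3.58.1 under R 4.3.3 (lmFit, contrasts.fit, eBayes with trend and robust estimation) and gave 9 comparisons, 2-sided, with Benjamini-Hochberg adjustment over all tested probe sets. The code was tested on simulated data. For lists, the probe set with the highest mean represented a gene.

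All members were named. Up to 4 genes of each list per comparison, those with the largest change among genes that passed, could be named, and so could Ppara, Slc25a20 and Cyp4a1; further genes of that rule are not reported here. Hsd17b4 and the shifts within gene pairs were chosen after values were seen. The members and lists were chosen with earlier results of these data known. Alternatives covered centring array medians, quantile normalization, an added constant of 32, other filters, fewer samples in the fit, array weights, a block, plain eBayes and leaving out arrays. Scaling and array alternatives for the pathway lists were added after seeing the data. Figures were drawn with matplotlib 3.10.9.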

Additional observations from a re-analysis of the deposited data

Results flagged for a closer look

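In each group of 5 arrays, the highest and lowest values of the 9 tested probe sets and the shared probe set were compared with the others by Dixon's ratio, with a 95% critical value of 0.71. Of 60 groups tested, 1 exceeded it, where chance gives about 5%. Acadvl on array 5 of the 300 µM group at 48 h had a ratio of 0.764: it read 12.51, whereas the other 4 arrays read 12.76 to 12.83.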

How the results depend on the processing

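At 3000 µM the number of probe sets called, falls and rises together, moved by less than 1.5 times under every alternative run, at both times and against either vehicle or 300 µM. Against 300 µM at 24 h, Hadhb was a rise with quantile normalization (adjusted p = 0.0470) where the deposited scale gave 0. Leaving out single arrays gave 8 to 8 called against vehicle at 24 h and 7 to 8 at 48 h (8 without array 4 at 3000 µM). It gave 7 to 7 against 300 µM at each time, 1 to 1 between vehicle times, 0 to 1 for the difference of the 3000 µM effect and 0 to 0 for that of the 300 µM effect. The low dose depended on the processing. At 300 µM the count was 2 at 24 h and 1 at 48 h, with 1 to 3 and 0 to 1 when single arrays were left out. Centring array medians gave 0 at 24 h, 0 at 48 h and 0 between vehicle times. At 48 h it was 2 with quantile normalization, with only the compared groups in the fit, with array weights, with sets of running numbers as a replicate block, and without both arrays whose hybridization controls stood apart. Quantile normalization gave 2 between vehicle times. The causes were not tested.

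Over all probe sets, the calls at 300 µM against vehicle numbered 496 at 24 h and 227 with array medians centred. At 48 h they numbered 255, and 124 with medians centred, 507 with only the compared groups, 615 with array weights and 467 without the 2 arrays that stood apart. Of single probe set results under the alternatives, 1976 kept their side of the threshold, 16 newly passed, 8 no longer passed and 0 passing results changed sign. The labels do not say what the running numbers in the titles count. Deviations of arrays in the same set of 6 correlated at 0.0052 on average. Of 30 arrays, 9 correlated best with their own among the 5 sets. These values cannot exclude a pairing of wells with a small effect. The block moved the count at 300 µM and 48 h from 1 to 2, where Cpt1a passed (adjusted p = 0.0398). Dim probe sets limit Ehhadh at 3000 µM, Ppara and the 2 further Hadha probe sets.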
